A study of Mus musculus with 12 samples.

Results

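Krt8, Krt18, Krt19, Vim and Ncam1 are 5 genes used as markers of the immature Sertoli cell, the somatic nurse cell of the seminiferous tubule. They were chosen by name, and every array probe annotated with one of these symbols was taken, which gave 10 probes for 5 of the 19057 genes on the array. The study hybridised whole-testis RNA of mice at 10 days of age, 12 samples in all, to Illumina MouseWG-6 v2 arrays, on which beads carry the probes. The KO group (SC-RbKO, 4 arrays, KO 1 to KO 4) had the retinoblastoma gene Rb deleted on both alleles in Sertoli cells. The HET group (SC-Rb+/-, 3 arrays, HET 5 to HET 7) carried the deletion on 1 allele, and the WT group (Wild Type, 5 arrays, WT 8 to WT 12) on none. The deletion was made by Cre recombinase driven by the anti-Müllerian hormone (Amh) promoter, which is active in Sertoli cells, acting on floxed Rb. The other cells of the testis were therefore not targeted, yet their RNA is in every sample. The comparisons ask whether the marker transcripts of the immature state differ in level when the Sertoli cells lack Rb.

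Intermediate filaments are the cytoplasmic fibres that give a cell mechanical strength. Keratins form them only as pairs of a type II and a type I chain: in simple epithelia the type II chain of Krt8 pairs with the type I chain of Krt18 or Krt19. In the rat, fetal Sertoli cells hold keratins together with vimentin (Vim), and vimentin is the filament that remains as they mature. Vimentin is a type III filament protein that is also abundant in stromal, endothelial and blood cells. Neural cell adhesion molecule 1 (Ncam1) is an immunoglobulin family protein of the cell surface that joins Sertoli cells to early germ cells in cultures of neonatal rat testis.

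The 5 genes lie on 4 chromosomes. Krt8 and Krt18 are on chromosome 15 with 0 protein-coding genes between them, Krt19 is on chromosome 11, Ncam1 on 9 and Vim on 2. Promoters of 3 of the 5 members, Krt8, Krt18 and Vim, were in the RefSeq table used (build GRCm38.p6). They are shown, 5′ to 3′, because Rb acts on genes through the E2F transcription factors, and because Krt8 and Krt18 are a filament pair lying side by side. Each window holds 250 bases before and 50 bases after the annotated start, and capitals mark matches to TATAAA or CCAAT on either strand.
Krt8, chr15:102004293-102004592, minus strand: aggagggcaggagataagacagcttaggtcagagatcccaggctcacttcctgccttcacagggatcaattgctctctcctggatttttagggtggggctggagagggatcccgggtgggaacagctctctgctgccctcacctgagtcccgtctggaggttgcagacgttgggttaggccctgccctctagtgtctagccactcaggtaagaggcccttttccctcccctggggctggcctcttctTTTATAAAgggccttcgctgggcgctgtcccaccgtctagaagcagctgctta
Krt18, chr15:102027966-102028265, plus strand: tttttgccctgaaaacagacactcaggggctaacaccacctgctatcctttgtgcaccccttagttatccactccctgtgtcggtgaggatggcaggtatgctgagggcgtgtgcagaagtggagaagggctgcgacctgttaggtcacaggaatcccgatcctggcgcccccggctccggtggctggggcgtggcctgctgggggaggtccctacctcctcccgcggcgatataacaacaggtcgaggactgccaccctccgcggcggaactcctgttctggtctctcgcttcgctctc
Vim, chr2:13574061-13574360, plus strand: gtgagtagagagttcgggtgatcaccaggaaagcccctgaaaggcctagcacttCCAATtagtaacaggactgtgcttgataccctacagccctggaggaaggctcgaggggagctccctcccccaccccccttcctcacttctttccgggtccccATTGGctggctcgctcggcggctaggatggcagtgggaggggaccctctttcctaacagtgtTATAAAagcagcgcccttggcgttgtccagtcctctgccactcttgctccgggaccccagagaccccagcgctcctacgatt
In the Vim window, TATAAA begins at base -32 and CCAAT matches begin at -196 on the plus strand and -94 on the opposite strand, counted from the start site. In the Krt8 window the capitals are a single run in which TATAAA matches on both strands, at -3 and -1, overlap. The Krt18 window matched neither. TATAAA occurs in 13.6% of 32851 promoter windows of this length in the table and CCAAT in 37.4%. None of the 3 windows held GGGCGG, found in 35.7% of all windows, or any of the E2F forms TTTCCCGC, TTTCGCGC, TTTGCCGC and TTTGGCGC, of which at least 1 is found in 2.26%. Both strands were searched, and these counts describe letters in these windows.

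Which of the markers the arrays could measure was asked first. A probe was counted as detected on an array where its deposited detection p-value was under 0.05, and was tested where it was detected on at least 3 of the 12 arrays, as were 20170 of 45281 probes. Of the 10 member probes, 4 were tested and 6 were detected on no array. The tested probes were ILMN_1221157 of Krt8 and ILMN_2451022 of Vim, each detected on 12 of 12 arrays, and ILMN_1237421 and ILMN_3102825 of Ncam1, detected on 11 and 3. Because a probe could pass this filter through a single group, the 4 tested probes do not stand for all members. Each gene below is represented by its brightest detected probe.

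Krt18 and Krt19, the type I partners of Krt8, were not above background on any array. The only Krt18 probe, ILMN_2711267, had unnormalized intensities of 45.7 to 55.3 on KO arrays, 44.6 to 49.9 on HET arrays and 45.6 to 55.8 on WT arrays, and its lowest detection p was 0.112. The only Krt19 probe, ILMN_2614462, had 38.5 to 61.5 on KO arrays, 40.2 to 46.1 on HET arrays and 41.1 to 48.1 on WT arrays, with a lowest detection p of 0.0545 on KO 4. The groups overlapped for both genes, and no difference is given between values that have only an upper bound. The second probe of Krt8 (ILMN_1229241), the second of Vim (ILMN_1232980) and the probes ILMN_1254093 and ILMN_2722864 of Ncam1 were likewise not above background on any array. Levels of different probes are not compared, since each probe has its own response.

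**Figure D1:**
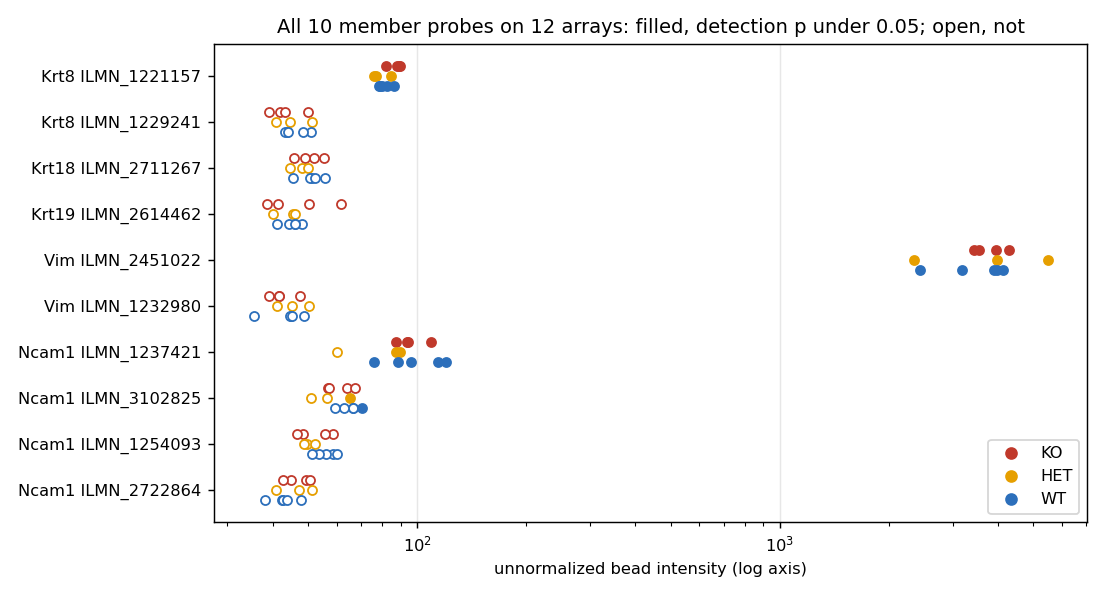
Unnormalized bead intensity (x, log axis) of all 10 probes of the 5 genes on the 12 arrays, with KO above HET above WT for each probe. Filled points have a detection p under 0.05 and open points do not: the probes of Krt18 and Krt19 are open on every array, and the bright Vim probe is filled on all 12.

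The arrays themselves were alike in coverage, with 39.3 to 43.7% of probes detected. On 3 arrays the meiotic germ cells stood apart: the mean of 11 detected meiotic genes, on the log2 scale and relative to the WT mean, was 0.94 on HET 7, -1.15 on HET 6 and 0.87 on WT 12, against -0.39 to 0.0068 on the other 9. Ldhc, a lactate dehydrogenase of spermatocytes, followed with 11.51 on HET 7, 5.25 on HET 6 and 10.55 on WT 12. Differences in HET that rest on HET 6 or HET 7, and differences in KO that rest on WT 12, are also given without these arrays, and where HET 5 is then the only HET array it is assumed to vary like the other groups. The brighter Rb1 probe averaged 8.82 ± 0.30 (SD, n = 4) on KO arrays, 9.04 ± 0.22 (n = 3) on HET arrays and 9.07 ± 0.19 (n = 5) on WT arrays. The other tested Rb1 probe, ILMN_2861644, averaged 7.33 ± 0.29 on KO arrays, 7.38 ± 0.064 on HET arrays and 7.80 ± 0.22 on WT arrays. By that probe all HET values lay below all WT values, and the differences from WT were -0.47 for KO and -0.41 for HET (limma adjusted p = 1 and 0.466, unadjusted 0.00579 and 0.0191). The place of either probe relative to the floxed segment was not stated, so neither checks the genotypes. The Y-linked gene Eif2s3y was detected on the 6 arrays with the lower numbers in the deposited column names (KO 1, KO 2, HET 5, HET 6, WT 8 and WT 9) and on none of the other 6; what those numbers stand for is not given, and differences are therefore also given within each set of 6. Of 16 Sertoli cell identity genes on the array, 14 were detected, among them Sox9, a transcription factor of testis differentiation, and Dhh, a hedgehog ligand.

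Genotypes were compared with limma on log2 normalized intensities, in a single fit of all 12 arrays, with Benjamini-Hochberg adjustment over the 20170 probes and a threshold of 0.05. Of the 4 tested member probes, 0 passed in KO against WT, in HET against WT or in KO against HET, and 0 had an unadjusted p under 0.05 in any of these comparisons. Over all 20170 probes, 0% passed in each comparison, and 2.4% had an unadjusted p under 0.05 in KO against WT, 10.5% in HET against WT and 7.51% in KO against HET. The share of probes whose groups did not overlap was 1.83% in KO against WT, 2.86% in HET against WT and 5.57% in KO against HET. Without HET 5, 167 probes passed in HET against WT and 55 in KO against HET, with the brightest probes of Krt8, Vim and Ncam1 not among them. Whether the samples of a group are separate mice or litters is not stated, so a p-value here reflects only how these RNA samples varied, which may be technical. In whole testis RNA, fewer cells of a type and less RNA per cell cannot be told apart.

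Krt8 was on average slightly higher on KO arrays than on WT arrays, but the difference did not pass the test. Its probe had log2 intensities of 5.86, 5.69, 5.70 and 6.04 on KO 1 to KO 4. On HET 5 to HET 7 it had 5.55, 5.66 and 5.60, and on WT 8 to WT 12 it had 5.46, 5.67, 5.62, 5.53 and 5.80. KO 4 and KO 1 lay above every WT array, KO 2 and KO 3 lay inside the WT range, and all 4 KO arrays lay above all 3 HET arrays. The means were 5.82 ± 0.16 (SD, n = 4) for KO, 5.60 ± 0.053 (n = 3) for HET and 5.62 ± 0.13 (n = 5) for WT. KO minus WT was 0.20 (SE 0.10, 95% interval -0.0092 to 0.42, limma adjusted p = 1, unadjusted 0.0592), and the exact two-sided permutation p was 0.0794 over 126 arrangements. The difference was 0.21 within the lower-numbered arrays and 0.22 within the higher-numbered ones. It was 0.13 without KO 4 (limma adjusted p = 1).

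KO minus HET for Krt8 was 0.22 (SE 0.11, interval -0.022 to 0.46, limma adjusted p = 0.624). These 2 groups did not overlap, as for 5.57% of all probes, and the exact two-sided permutation p of 0.0571 is the smallest that 35 arrangements can give. HET minus WT was -0.017 (SE 0.11, interval -0.25 to 0.22, limma adjusted p = 0.964), and the HET values lay within the WT range. The spread of Krt8 between arrays of a group was low: its residual SD of 0.13 was at percentile 19.6 of all tested probes, whose median was 0.19. Its mean level was low too, at percentile 22.1, and the spread was not set against that of probes of like level.

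**Figure D2:**
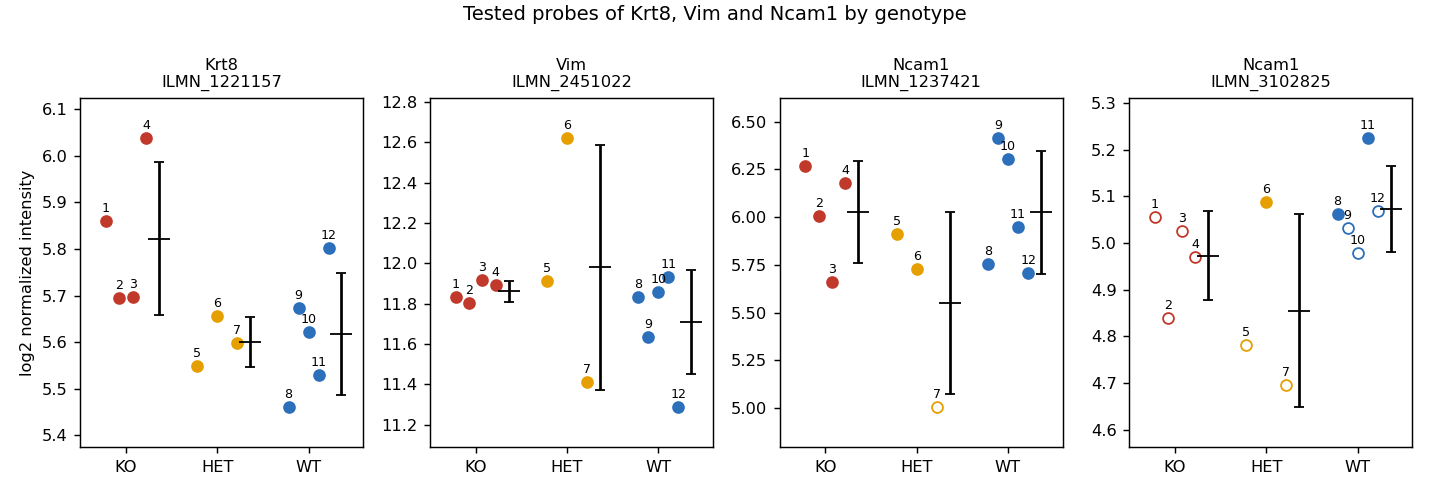
Log2 normalized intensity (y, a separate range in each panel) of the 4 tested probes on the arrays of the KO, HET and WT groups, each point marked with its array number. Bars show mean ± SD, and open points have a detection p of 0.05 or more: Krt8 is highest on KO 4 at 6.04, Vim spreads from 11.29 on WT 12 to 12.62 on HET 6, and Ncam1 ILMN_1237421 is lowest on HET 7 at 5.01.

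Across the keratin probes, 1 KO array stood out, a pattern looked for after the values were seen. On the normalized scale, KO 4 had the highest value of the 12 arrays for all 4 probes of Krt8, Krt18 and Krt19. Krt19 was 5.14 on KO 4, against 4.37 to 4.59 on the other KO arrays, 4.42 to 4.50 on HET arrays and 4.45 to 4.50 on WT arrays. Krt18 was 4.89 on KO 4, against at most 4.72 elsewhere. The same 4 of 4 held in the authors' normalized values, but in the unnormalized intensities KO 4 was highest for 1 of the 4. Of these 4 probes only the brighter one of Krt8 was above background, so the order of arrays for the other 3 lies within background.

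Upk3b, a uroplakin that marks mesothelium, was also highest on KO 4, by all 3 of its tested probes. Its brightest probe, ILMN_2941714, had 7.12, 5.70, 4.56 and 8.38 on KO 1 to KO 4. On HET 5 to HET 7 it had 5.48, 6.02 and 5.91, and on WT 8 to WT 12 it had 6.32, 4.77, 5.94, 5.63 and 6.36. KO 1 and KO 4 lay above all HET and WT arrays while KO 3 was the lowest of the 12. The values on KO 3 and WT 9 were not above background, so they have only an upper bound and their order is not read. The correlations include both arrays. Over the 12 arrays Krt8 and Upk3b had Pearson r = 0.65 (permutation p = 0.0273) and Spearman rho = 0.38 (permutation p = 0.228). Upk3b was chosen after its values were seen, so these p-values are for a pair picked for its pattern and are not a test of it. The relation of Krt8 and Upk3b rested on KO 4. Its r was 0.27 without that array and 0.42 without the 2 arrays farthest from the median, KO 3 and KO 4. It was 0.34 within the lower-numbered arrays and 0.79 within the higher-numbered ones. Upk3b was not alone in this: with the mean of the stroma genes Krt8 had r = 0.65 (permutation p = 0.019). That r was 0.63 without HET 6, HET 7 and WT 12, and 0.32 without the 2 farthest arrays. With the spermatogonia mean Krt8 had r = -0.60 (permutation p = 0.0439). Adjusted over 30 relations of members with cell type lists, these p-values were 0.143 and 0.219. Cdh16, a cadherin of kidney and duct epithelium, was detected on KO 4 alone, at 5.74. Of 16 rete, epididymis and mesothelium markers, 15 were on the array and 3 (Upk3b, Cdh1 and Cldn7) were tested. Of these 3, 2 were higher and 1 lower in KO than in WT, and 3 were lower in HET, but the other 2 did not follow Upk3b. Cdh1, the epithelial cadherin, had 5.28, 5.01, 5.21 and 5.05 on KO 1 to KO 4, against 5.45, 5.37, 5.30, 5.36 and 5.19 on WT 8 to WT 12, and was above background on KO 1 and KO 3 only among the KO arrays. KO 4, where Upk3b was highest, thus lay below every WT array in Cdh1, at a value not above background. For the whole KO group, KO minus WT was -0.20 (limma adjusted p = 1, unadjusted 0.0466). It rests in part on KO 2 and KO 4, whose values have only an upper bound. On HET 5 to HET 7 Cdh1 had 4.91, 5.02 and 4.83, below all WT values, as for 2.86% of probes in either direction. HET minus WT was -0.42 (limma adjusted p = 0.466, unadjusted 0.000885), -0.47 without HET 6 and -0.37 without HET 7. Of the HET arrays only HET 6 was above background. Cldn7, a tight junction claudin, was highest on KO 2 at 5.97, and its 5.76 on KO 4 lay inside the WT range of 5.54 to 5.79. The mean of the 3 genes relative to WT ranged from -0.50 to 0.80 on KO arrays, -0.41 to -0.0074 on HET arrays and -0.34 to 0.17 on WT arrays, and its lowest and highest KO values, on KO 3 and KO 4, are mostly those of Upk3b. Lcn8, another marker of this list, was above background on HET 5 and WT 8 only, at 5.23 and 5.05, and not on KO 4. Epcam, Msln, Pax8 and Lcn5, further epithelial and duct markers, were not above background on any array. The part of such cells in the Krt8 values was not tested.

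**Figure D3:**
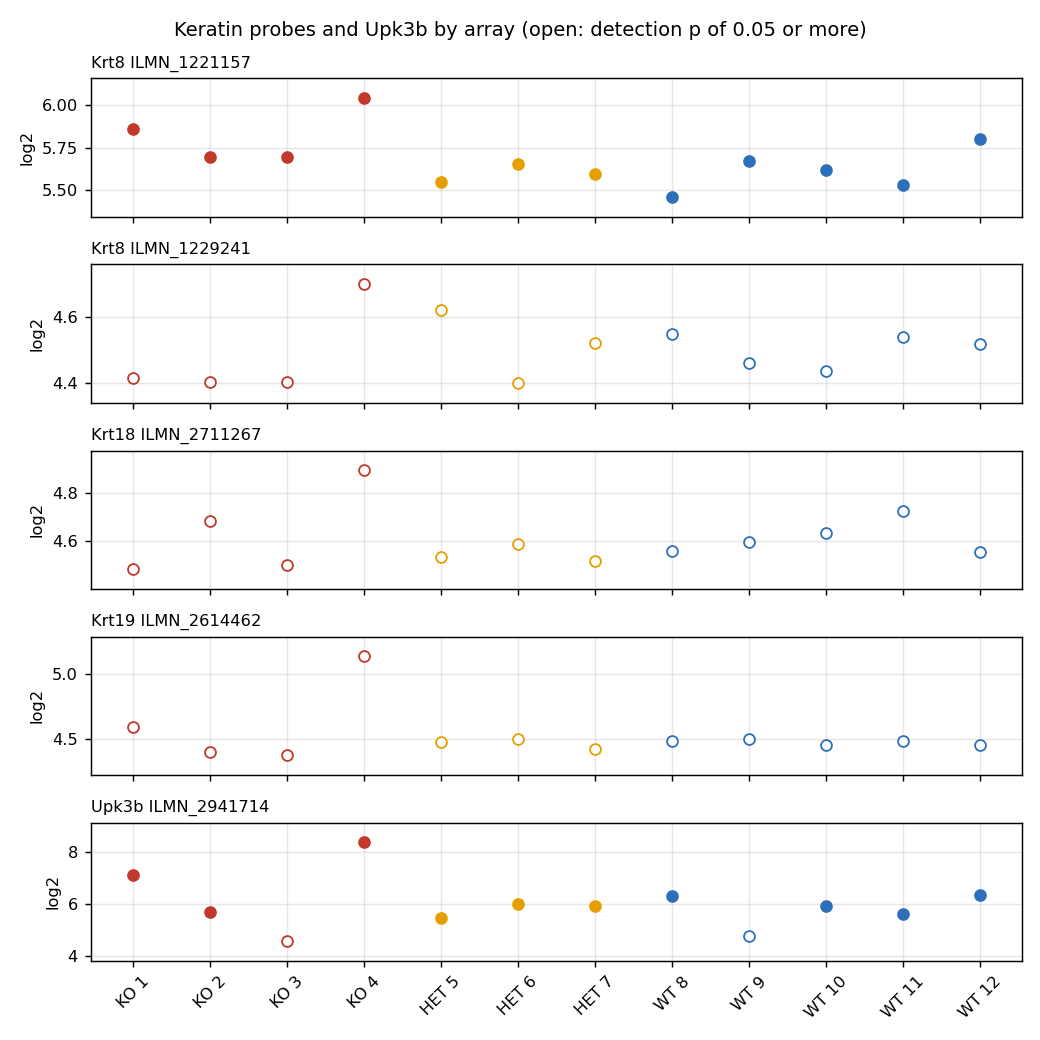
Log2 normalized intensity (y, a separate range in each panel) of the 4 keratin probes and of the brightest Upk3b probe on each of the 12 arrays (x, KO, HET, WT). Open points have a detection p of 0.05 or more: KO 4 is highest in every panel, with 6.04 for Krt8, 5.14 for Krt19 and 8.38 for Upk3b.

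Other keratins were not higher in KO as a group. Of 20 further keratin genes on the array, 8 were detected, and 0 passed the threshold in any comparison. In KO against WT 3 were higher and 5 lower, with a median difference of -0.082, against 0.0016 over all 11076 genes tested, of which 50.5% were higher. Krt7, another type II keratin of simple epithelia, had 0.11 (unadjusted p = 0.402), and Krt80 had 0.18 (0.0908). Krt20, a type I keratin of the gut lining, had -0.24 (0.101), and Krt23 -0.25 (0.301), or -0.16 without WT 12. In HET against WT, 2 were higher and 6 lower, but without HET 6 and HET 7 6 were higher and 2 lower. Krt10, a type I keratin of the epidermis, averaged 8.53 ± 0.56 on HET arrays, against 8.97 ± 0.12 on WT arrays (difference -0.44, limma adjusted p = 0.466). It had 8.98, 7.90 and 8.73 on HET 5 to HET 7, so the difference rested on HET 6, and it was -0.12 without that array (limma adjusted p = 0.930).

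Vim, the type III filament gene, was strongly detected on every array, and its differences between genotypes were smaller than its wide spread between arrays. It had 11.83, 11.80, 11.92 and 11.89 on KO 1 to KO 4. On HET 5 to HET 7 it had 11.91, 12.62 and 11.41, and on WT 8 to WT 12 it had 11.83, 11.63, 11.86, 11.93 and 11.29. The KO arrays lay close together inside the WT range, HET 6 was the highest of the 12, and WT 12 and HET 7 were the lowest. The means were 11.86 ± 0.052 (SD, n = 4) for KO, 11.98 ± 0.61 (n = 3) for HET and 11.71 ± 0.26 (n = 5) for WT. KO minus WT was 0.15 (SE 0.20, interval -0.28 to 0.58, limma adjusted p = 1, exact two-sided permutation p = 0.365), with 0.085 in the lower-numbered and 0.21 in the higher-numbered arrays. It was 0.047 without WT 12.

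HET minus WT for Vim was 0.27 (SE 0.22, interval -0.20 to 0.74, limma adjusted p = 0.609), and it was -0.049 without HET 6 and 0.56 without HET 7. KO minus HET was -0.12 (SE 0.23, interval -0.61 to 0.37, limma adjusted p = 0.884), and it was 0.20 without HET 6 and -0.40 without HET 7. Within the lower-numbered arrays HET minus WT was 0.53 and within the higher-numbered ones -0.28. The direction of both differences therefore rested on a single array. The residual SD of Vim was 0.34, at percentile 90.1 of tested probes.

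The 3 arrays extreme in Vim are those that stand apart in meiotic genes, in the opposite order: HET 6, lowest in the meiotic mean, was highest in Vim, while HET 7 and WT 12, highest in the meiotic mean, were lowest in Vim. Among the other 9 arrays the correlation of Vim with the meiotic mean was r = 0.28 across a meiotic range of -0.39 to 0.0068. Because the arrays fall into separate clusters, no correlation over all 12 is given. With the meiotic mean as a covariate, KO minus WT was 0.022, HET minus WT 0.19 and KO minus HET -0.17 (limma adjusted p = 1, 0.405 and 0.499). This fit holds all 12 arrays, so the same 3 arrays weigh most in its slope, and the limit of the clusters applies to it too. Without the 3 arrays, and with no covariate, the differences were 0.047, 0.096 and -0.049.

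**Figure D4:**
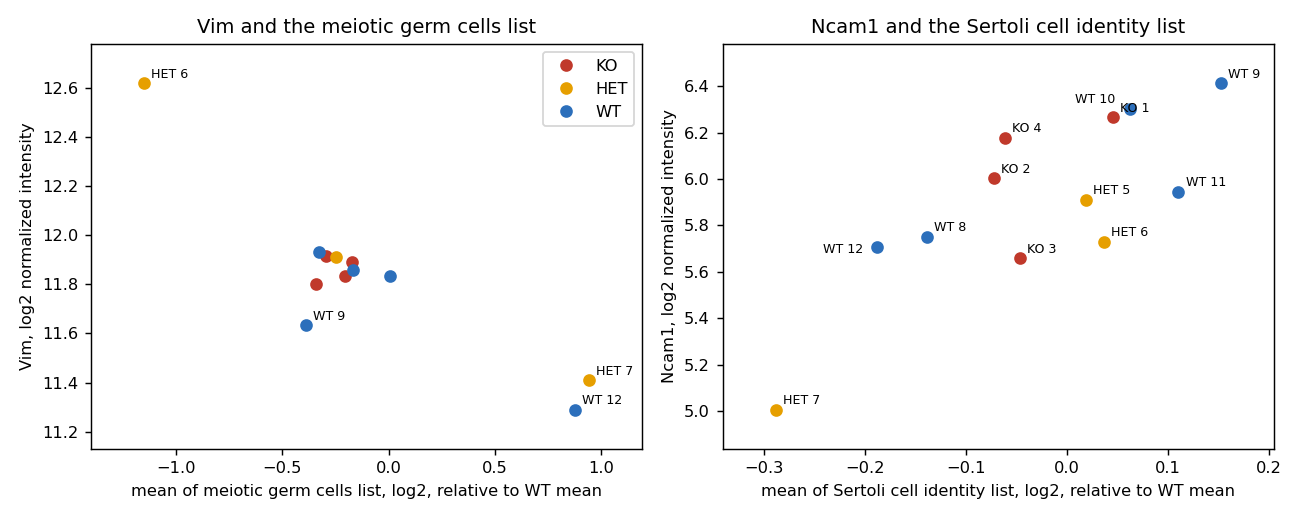
Left, Vim (y) against the mean of 11 meiotic genes (x), with the 3 arrays that stand apart and WT 9 named. Right, Ncam1 (y) against the mean of 14 Sertoli cell identity genes (x), all arrays named. Values are log2, list means are relative to WT, and colours give KO, HET and WT: HET 6 lies at the upper left for Vim, HET 7 and WT 12 at the lower right, and HET 7 at the lower left for Ncam1.

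The other intermediate filament genes were higher in KO than in WT in 9 of 9 detected cases, of 13 on the array, each by a small amount. Their median difference was 0.060, and over all genes tested 50.5% were higher. The 9 of 9 held with scaling to the same median and in the authors' values, and without WT 12 it was 8 of 9. Of these genes, 0 had an unadjusted p under 0.05 against 2.4% of all genes, and 0 passed the threshold. The largest was Ina, the neuronal filament protein alpha-internexin, with 0.22 (unadjusted p = 0.0932). Lmnb1 and Lmnb2, the B-type lamins of the nucleus, had 0.20 (0.107) and 0.12 (0.210). Lmnb1 had 10.45, 10.90, 10.93 and 10.97 on KO 1 to KO 4, against 10.71, 10.61, 10.64, 10.51 and 10.58 on WT 8 to WT 12, so KO 2, KO 3 and KO 4 exceeded all WT values. Des, the muscle filament desmin, had 0.060 (0.11 without WT 12), and Nes, nestin, had 0.072. In HET against WT 4 were higher and 5 lower, with a median of -0.012, but without HET 6 and HET 7 8 were higher and 1 lower, with a median of 0.12. Nefm, a neurofilament subunit, had the smallest unadjusted p in HET against WT (-0.32, 0.0547). Its value on HET 7, 4.85, was not above background and has only an upper bound. The Nefm difference was -0.19 without HET 7, -0.43 without HET 6 and -0.28 without both arrays.

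Of 16 genes on the array for proteins that link filaments to each other or to junctions, 10 were detected, with 6 higher and 4 lower in KO than in WT and a median of 0.027. Without WT 12 they were 4 and 6, with a median of -0.010. Envoplakin (Evpl), a linker of the plakin family, had 0.22 (unadjusted p = 0.0591) and Tchp, a keratin-binding protein, -0.12 (0.247). Trim54, a microtubule-associated ring finger protein of muscle, had 0.13 (0.282), or 0.062 without WT 12. It was detected on 3 of 5 WT arrays, so its WT mean rests in part on values at background. Pkp2, a desmosomal plakophilin, had the smallest unadjusted p in HET against WT (0.22, 0.154), and its difference was 0.022 without HET 6. Neither comparison had a linker past the threshold.

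All 14 kinases and chaperones of filaments on the array were detected, 8 higher and 6 lower in KO than in WT, with a median of 0.075. Aurkb, the mitotic kinase that phosphorylates vimentin at cleavage, had 0.18 (unadjusted p = 0.0577). Akt1 averaged 4.86 on KO arrays, where it was detected on 0 of 4, against 5.15 on WT arrays, where it was detected on 3 of 5. Its unadjusted limma p was 0.0416, or 0.101 without WT 12. Of the 14 genes it was the 1 with an unadjusted p under 0.05 in KO against WT, as had 2.4% of all genes. The KO values have only an upper bound, and no fold is given. Ywhab is a 14-3-3 protein, of the family that binds phosphorylated Krt18 protein. It had 10.42, 10.00 and 10.24 on HET 5 to HET 7, against 10.50, 11.00, 10.84, 10.80 and 10.49 on WT 8 to WT 12. The HET values lay below all WT values, as for 2.86% of probes in either direction (difference -0.51, limma adjusted p = 0.466, unadjusted 0.00263). Without HET 6 and HET 7 it was -0.30. KO minus WT was -0.25 (unadjusted p = 0.0679).

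The KO and WT means of Ncam1 were nearly equal, while the HET mean was lower without passing the test. Its brighter probe had 6.27, 6.00, 5.66 and 6.18 on KO 1 to KO 4. On HET 5 to HET 7 it had 5.91, 5.73 and 5.01, and on WT 8 to WT 12 it had 5.75, 6.41, 6.30, 5.95 and 5.71. The KO and WT groups covered nearly the same range, and HET 7, where the probe was not above background, was the lowest of the 12. The means were 6.03 ± 0.27 (SD, n = 4) for KO, 5.55 ± 0.48 (n = 3) for HET and 6.02 ± 0.32 (n = 5) for WT. KO minus WT was 0.0028 (SE 0.20, interval -0.44 to 0.44, limma adjusted p = 1), and its sign changed with the processing. Within sets it was 0.053 in the lower-numbered and -0.067 in the higher-numbered arrays.

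HET minus WT for Ncam1 was -0.48 (SE 0.22, interval -0.96 to 0.0051, limma adjusted p = 0.466, unadjusted 0.0521), and the exact two-sided permutation p was 0.179 over 56 arrangements. KO minus HET was 0.48 (SE 0.23, interval -0.024 to 0.98, limma adjusted p = 0.624). Both rested in large part on HET 7: without it they were -0.20 (limma adjusted p = 0.624) and 0.21 (0.699). Within the lower-numbered arrays HET minus WT was -0.26 and within the higher-numbered ones, whose only HET array is HET 7, it was -0.98, where the HET value is not above background and has only an upper bound. The residual SD of 0.35 was at percentile 91.3 of tested probes.

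The second tested Ncam1 probe, ILMN_3102825, was close to background. It was detected on 0 of 4 KO arrays, 1 of 3 HET arrays (HET 6) and 2 of 5 WT arrays (WT 8 and WT 11). Its means were 4.97 ± 0.095 (SD, n = 4) for KO, 4.86 ± 0.21 (n = 3) for HET and 5.07 ± 0.092 (n = 5) for WT, and 9 of the 12 values behind them are not above background. No difference is therefore read from this probe.

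**Figure D5:**
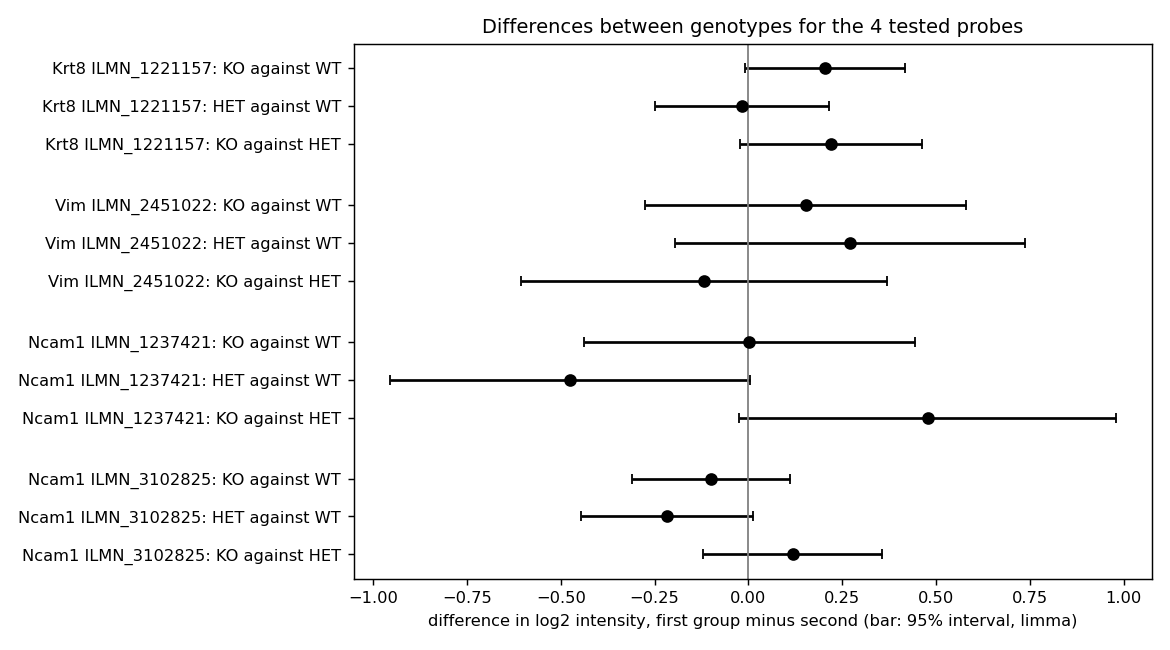
Differences in log2 normalized intensity (x) for the 4 tested probes (y), each given as KO minus WT, HET minus WT and KO minus HET, with 95% intervals from limma. All 12 intervals include 0, and the widest are those of Vim and of Ncam1 ILMN_1237421, which reach from -0.96 to 0.0051 in HET minus WT for Ncam1. ILMN_3102825 was detected on 3 arrays, so its intervals compare values mostly at background.

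Ncam1 and Sertoli cell identity genes were lowest on the same array. The mean of 14 identity genes, relative to WT, was -0.29 on HET 7, and the next lowest were WT 12 at -0.19 and WT 8 at -0.14, which were also low in Ncam1. KO 3 and HET 6 were lower than WT 8 in Ncam1, at 5.66 and 5.73, but their identity means were -0.047 and 0.037. Over the 12 arrays Ncam1 and this mean had Pearson r = 0.79 (permutation p = 0.00243, adjusted p = 0.0243 over 30 relations of 3 members with 10 cell type lists) and Spearman rho = 0.69 (permutation p = 0.0153, adjusted 0.229). The r was 0.53 without the 2 arrays farthest from the median of the list mean, 0.62 without the 3 arrays that stand apart in meiotic genes, and 0.69 and 0.80 within the lower- and higher-numbered arrays. These relations were computed after the data had been seen, and by rank none of the 30 passed after adjustment.

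A like relation held with endothelial genes, for which Ncam1 had r = 0.78 (permutation p = 0.00194, adjusted 0.0243) and rho = 0.71 (permutation p = 0.0114, adjusted 0.229). The r was 0.77 without the 2 farthest arrays and 0.50 without the 3 arrays. With the identity mean as a covariate, HET minus WT for Ncam1 was -0.31 and KO minus HET was 0.39 (limma adjusted p = 0.406 and 0.570). The part that the share of Sertoli or endothelial cells has in the Ncam1 values was not tested further.

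Genes of NCAM partners and signalling differed little between KO and WT as a group. Of 22 on the array, 13 were detected; 9 were higher and 4 lower in KO than in WT, with a median of 0.037, and 0 passed the threshold. Fgfr1, a growth factor receptor that NCAM binds, was the only gene of the list with an unadjusted p under 0.05 in KO against WT, against 2.4% of all genes. It had 6.50, 6.42, 6.38 and 6.24 on KO 1 to KO 4, and 6.34, 5.97, 6.01, 6.08 and 5.80 on WT 8 to WT 12. KO 1 to KO 3 lay above all WT arrays and KO 4 above all but WT 8 (difference 0.34, limma adjusted p = 1, unadjusted 0.0204), and the difference was 0.29 without WT 12 (unadjusted p = 0.0517). Fgfr2, the related receptor, had -0.22 (unadjusted p = 0.164). St8sia2, which adds polysialic acid to NCAM, had 0.19 (0.399), or 0.32 without WT 12 (0.132). In HET against WT 8 were higher and 5 lower, with a median of 0.10, which was -0.030 without HET 6 and -0.021 without HET 6 and HET 7. Fyn, a kinase at the inner side of NCAM, had 6.31, 7.17 and 7.04 on HET 5 to HET 7, against 6.60, 6.33, 6.62, 6.43 and 6.47 on WT 8 to WT 12 (difference 0.34, unadjusted p = 0.0549). HET 6 and HET 7 lay above all WT arrays and HET 5 below them, so the difference was -0.19 without HET 6 and HET 7.

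No relation between the 3 measured members across arrays passed a test. Pearson r was -0.094 for Krt8 and Vim (permutation p = 0.758), 0.33 for Krt8 and Ncam1 (0.297) and 0.19 for Vim and Ncam1 (0.543), each with an adjusted p of 0.758 over the 3 pairs. Spearman rho was -0.20 (permutation p = 0.537), 0.19 (0.558) and -0.025 (0.943). Without the 2 arrays farthest from the median of the first gene, r was -0.23, 0.22 and 0.50. For Vim and Ncam1 the sign depended on which arrays entered: r was -0.59 without HET 6, HET 7 and WT 12, -0.65 within the lower-numbered arrays and 0.64 within the higher-numbered ones, none past an adjusted p of 0.05. Whether Krt8 moves with its filament partners Krt18 and Krt19 could not be asked, since those were not above background.

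The other markers of the immature Sertoli cell were mixed. Of 12 on the array 10 were detected, 5 higher and 5 lower in KO than in WT, with a median of 0.0016 and 0 past the threshold. Without WT 12 2 were higher and 8 lower, with a median of -0.045. Thra, a thyroid hormone receptor, had 0.27 (unadjusted p = 0.0511), and Igfbp5, a binding protein of insulin-like growth factors, had 0.42 (0.0956). Igfbp5 had 9.54, 9.50, 8.89 and 10.32 on KO 1 to KO 4, against 9.03, 9.17, 9.31, 9.33 and 8.88 on WT 8 to WT 12, so that KO 4 was again the highest. Hsd17b1, a steroid dehydrogenase, had -0.43 (0.186), or -0.68 without WT 12 (0.0202). In HET against WT, 3 were higher and 7 lower, with a median of -0.16, which was -0.035 without HET 7. Inha, the inhibin alpha subunit, had 0.25 (0.0645), with 12.37, 12.98 and 12.71 on HET 5 to HET 7. It had 0.10 without HET 6 and -0.067 without HET 6 and HET 7.

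Markers that rise as Sertoli cells mature were split in KO against WT as well, with 7 higher and 9 lower of 16 detected and a median of -0.0085. Id2, an inhibitor of basic helix-loop-helix factors, had -0.22 (unadjusted p = 0.0763). Ocln, the tight junction protein occludin, had 0.24 (0.105). Cdkn1b, the cell cycle inhibitor p27, was detected on 1 of 4 KO arrays, 3 of 3 HET arrays and 1 of 5 WT arrays, so no difference is given for it. Its normalized values were 5.39, 5.05 and 5.52 on HET 5 to HET 7, and 5.09 on WT 8, the only WT array above background. In HET against WT 13 were higher and 3 lower, with a median of 0.11, against -0.010 over all genes, of which 47.7% were higher. The lean lay on HET 6 and HET 7: the list mean relative to WT was 0.0045 on HET 5, 0.093 on HET 6 and 0.22 on HET 7, and from -0.11 to 0.099 on WT arrays, with WT 12 the highest. Without HET 6 and HET 7, 8 were higher and 8 lower, with a median of 0.012. With scaling to the same median 11 were higher and 5 lower. None of the 16 passed the threshold in either comparison.

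The genes most like each member were named by Pearson r over the 12 arrays, among 9241 genes detected on every array. For Krt8 they were Tmub2 (0.82), Spire2 (0.81), Cpz (0.79) and Ubqln4 (0.78), and without HET 6, HET 7 and WT 12 their r was 0.80 to 0.90. For Vim they were Hif1a (0.98), Akap2 (0.97), Mgat4b (0.96) and Mtcl1 (0.96), but without the 3 arrays Mgat4b had 0.18 and Mtcl1 0.42, while Hif1a kept 0.80 and Akap2 0.75. For Ncam1 they were Pcdhgb4 (0.92) and Pcdhgc5 (0.91), both of the protocadherin gamma cluster, Ctsz (0.90) and Btbd11 (0.90), with 0.73 to 0.78 without the 3 arrays. These are the highest of many values and are given as a description. Protocadherin gamma transcripts share their last exons, so their probes may not be independent.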

How the data were processed

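The members and gene lists were chosen with earlier results of these data known. The authors deposited unnormalized mean bead intensity and a detection p-value per probe and array, per the file headers, for 45281 probes on 12 arrays. They also deposited processed intensity values, which equal a quantile normalization of the unnormalized values to within 4.87e-08 percent. Scanner software: not given in the sources used here, nor is a genome build. RNA was Trizol-extracted and biotin-labelled, per the labels' protocols. Probe names came from the platform annotation: 34885 probes had 1 symbol, 18 several and 10378 none; 34807 matched RefSeq by Entrez ID and 0 symbols changed.

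Intensities were background-corrected by normexp from the detection p-values (offset 16), then put through quantile normalization and log2 transformation (neqc, limma 3.58.1, R 4.3.3). Bead arrays give no counts, so precision rests on the number of arrays (3 to 5 per group). A probe entered the fit (lmFit and eBayes, all 12 arrays) if its detection p was under 0.05 on 3 or more arrays, with Benjamini-Hochberg adjustment. The fit was tested on simulated data with 200 changed probes and independent noise for each probe and array. It recovered 39.9% of KO minus WT differences of 0.5, 87.6% of 1 and 98.7% of 2 on the log2 scale. Differences smaller than 0.5, and variation shared by many probes of an array, were not simulated. Exact permutation tests were two-sided; correlation p-values used 100000 permutations (scipy 1.17.1).

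Named were every member probe; from each pathway list the 3 detected genes with the smallest unadjusted p in KO against WT and the 1 with the smallest in HET against WT; the 4 genes most correlated with each member, except clone and predicted-gene names (Riken, Gm, LOC, EST); Rb1, Eif2s3y and Ldhc. Other genes named (Upk3b, Cdh1, Cldn7, Cdh16, Krt7, Des, Nes and list markers) were chosen after their values were seen. Alternatives were another offset, scaling, filter, probe rule, covariates, array weights, the authors' values and arrays left out. All 17 gene lists are given as counts for KO against WT.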

Additional observations from a re-analysis of the deposited data

Results flagged for a closer look

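In 5 of 54 groups of 4 or 5 arrays, 1 array lay far from the others of its group, measured as its gap to the nearest over the whole range. Chance gives about 1 in 20 such groups. The second Krt8 probe, ILMN_1229241, had 4.70 on KO 4, against 4.40 to 4.42 on the other KO arrays, all not above background. The second Vim probe, ILMN_1232980, had 4.36 on WT 12, against 4.46 to 4.50 on the other WT arrays, likewise not above background. The mean of the 16 Sertoli maturation markers, relative to WT, was 0.12 on KO 4, against -0.059 to -0.031 on the other KO arrays. The mean of the 14 filament kinases and chaperones was -0.080 on WT 12, against 0.0011 to 0.033 on the other WT arrays. The mean of the 10 peritubular myoid genes was 0.24 on KO 2, against 0.11 to 0.12 on the other KO arrays.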

How the results depend on the processing

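No paired analysis was possible because the groups share no replicate numbers. No member, by its brightest probe, passed the threshold in any alternative or with any array left out. KO minus WT for Krt8 was 0.12 to 0.25 over 17 alternatives and 0.13 to 0.25 with 1 array left out. For Vim it was 0.022 to 0.21 and 0.047 to 0.21. For Ncam1 it changed sign: it was -0.049 with the mean of its probes, -0.059 with array weights, -0.091 with the meiotic covariate, -0.00011 without background correction and in the authors' values, -0.028 with the number sets as a block, -0.00022 with an offset of 50, -0.015 with scaling to the same median and -0.076 without WT 12, HET 6 and HET 7, and -0.077 to 0.13 with 1 array left out. HET minus WT for Krt8 was 0.00055 with the number sets as a block and 0.0093 with scaling to the same median, and -0.056 to 0.029 with 1 array left out. For Vim it was -0.049 to 0.56 and for Ncam1 -0.66 to -0.20 with 1 array left out. KO minus HET for Vim was 0.043 with array weights; with 1 array left out it was -0.40 to 0.20, that for Krt8 0.15 to 0.26 and that for Ncam1 0.21 to 0.66. The correlation of Vim with Ncam1 was -0.59 without WT 12, HET 6 and HET 7 and -0.65 within the lower-numbered arrays. Among list genes, HET minus WT without HET 6 and HET 7, and without WT 12 as well, was 0.0012 and 0.026 for Krt10, -0.19 and -0.19 for Fyn, and -0.067 and -0.10 for Inha; these settings were added after the data had been seen. Over all probes, 1 passed in KO against WT without WT 12, HET 6 and HET 7, and 0 to 0 with 1 array left out. With 1 array left out, 0 to 167 passed in HET against WT and 0 to 55 in KO against HET, the highest counts both without HET 5. The causes were not tested. Low signal over background limits Krt8 and Ncam1, and 6 of 10 member probes gave no level.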

Other observations

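Some cell type lists leaned one way in KO against WT, with 0 genes past the threshold (limma adjusted p). Over all genes tested, 50.5% were higher in KO than in WT. All 10 detected peritubular myoid genes were higher in KO than in WT, with a median difference of 0.13. All 10 were also higher with scaling to the same median and in the authors' values. Among them Tagln, the smooth muscle protein transgelin, had 0.30 (unadjusted p = 0.0498) and Actg2, smooth muscle gamma actin, 0.29 (0.101). The mean of the 10 genes on each array, relative to WT, ranged from 0.11 to 0.24 on KO arrays, -0.14 to 0.12 on HET arrays and -0.073 to 0.10 on WT arrays. All 7 detected Leydig cell genes were lower in KO, with a median of -0.20. In HET against WT, 1 was higher and 6 lower, with a median of -0.28, where 47.7% of all genes were higher. The list means, -0.51 to 0.054 on KO arrays, -0.68 to 0.086 on HET arrays and -0.43 to 0.21 on WT arrays, overlapped.

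The remaining lists are given for KO against WT as genes higher and lower. The 14 Sertoli cell identity genes had 5 higher and 9 lower, with a median of -0.027, and 2 and 12 without WT 12, with a median of -0.079. The 11 stroma genes had 6 and 5 (median 0.11), and 8 and 3 without WT 12. The 11 endothelium genes had 4 and 7 (median -0.020), the 12 macrophage genes 3 and 9 (-0.12, or -0.070 without WT 12), the 14 spermatogonia genes 5 and 9 (-0.041) and the 5 nerve and striated muscle genes 4 and 1 (0.16). The 11 meiotic genes had 1 higher and 10 lower, with a median of -0.25, and without WT 12 the median was -0.040.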
